A study of Mus musculus with 52 samples.

Results

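H3K4me3 peaks of the suprachiasmatic nucleus (SCN) that lay outside every H3K27ac peak were described here, together with the expression of the genes nearest to them. They were chosen by peak values: a row of the dark H3K4me3 list with a -log10 q-value of at least 10, an overlap with a row of the light H3K4me3 list, a width under 3000 bp and no overlap with a row of the dark or light H3K27ac list. Of 30410 dark H3K4me3 peaks, 20702 reached the q-value, 20083 of them overlapped light H3K4me3 and 18063 were also under 3000 bp wide. Of these 18063 peaks 6312 (34.9%) overlapped no H3K27ac row and are called peaks without H3K27ac below, and the other 11751 are called acetylated H3K4me3 peaks. Among the acetylated peaks 9289 overlapped rows of both H3K27ac lists, 1364 of the dark list alone and 1098 of the light list alone.

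H3K4me3, trimethylation of lysine 4 of histone H3, is laid down around transcription starts, above all at CpG-rich promoters, also where transcription is low. H3K27ac, acetylation of lysine 27, marks active promoters and enhancers. Polycomb complexes place H3K27me3 on the same lysine, and promoters of developmental regulators can carry H3K4me3 together with H3K27me3, a state called bivalent. H3K27me3 is not analysed here, so peaks without H3K27ac cannot be divided by it.

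The SCN, the circadian pacemaker of the hypothalamus, was taken from male mice of 11 to 12 weeks. For ChIP-seq, wild-type mice received 1 h of light or stayed in the dark, and each sample pooled 2 pairs of SCN and gave 1 peak list per mark, so that the lists have no replicates. The circadian time of the ChIP samples is not given in the labels used here. In the light-pulse RNA-seq experiment wild-type mice were given light from circadian time (CT) 17, with 4 libraries after 0.5 h and 2 each after 1 h, 3 h and 6 h. Dark mice of that experiment gave 4 libraries at CT17 and 2 at CT23. The CT17 libraries are titled 1, 1s, 2 and 2s, and those with the same number may share a pool. An SD over these 4 libraries may then understate the spread between pools. In the Npas4 experiment mice labelled Npas4-/- and their wild-type littermates, both with and without 1 h of light at CT17, gave 3 libraries per group. Npas4 encodes an activity-induced transcription factor. Every RNA library pooled 6 pairs of SCN, and whole tissue was used, so that fewer cells of a type and less RNA per cell cannot be told apart.

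The libraries held 12477382 to 15369985 counted reads, or 27413860 to 30149286 in the 4 libraries whose titles carry a suffix s, in the light-pulse experiment, and 26638939 to 32097975 in the Npas4 experiment. The SCN markers Vip (186 to 273 RPKM), Avp (129 to 212 RPKM) and Six6 (27.5 to 40.8 RPKM) were present in all 4 CT17 dark libraries (RPKM, reads per kilobase of gene length, scaled to library depth). Npas4 itself read 1.66, 3.02 and 3.22 RPKM in dark libraries labelled null, against 2.7, 2.44 and 2.62 RPKM in wild-type dark libraries, and the 2 groups overlapped. After 1 h of light it read 1.4, 2.24 and 1.58 RPKM in libraries labelled null, against 4.15, 3.21 and 4.3 RPKM in wild type, and these groups did not overlap. Which part of the gene is missing is not given in the sources used here, so the dark values leave the genotype labels unchecked.

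Promoter sequences of 8 genes whose start lay inside a peak without H3K27ac show what these peaks cover, taken from RefSeq (GRCm38.p6, the build mm10). Each line gives the 250 bases before the transcription start, 5′ to 3′ on the gene's strand, with every CpG dinucleotide in capitals. Heatr1 (chr13:12395125-12395374, + strand), Sar1b (chr11:51763413-51763662, +) and Mrpl3 (chr9:105053018-105053267, +) have the 3 highest q-values. Prok2 (chr6:99726393-99726642, - strand), Egr4 (chr6:85513590-85513839, -) and Dusp5 (chr19:53528895-53529144, +) respond to light, and Six4 (chr12:73113246-73113495, -) and Lhx2 (chr2:38351058-38351307, +) encode homeodomain factors.
Heatr1: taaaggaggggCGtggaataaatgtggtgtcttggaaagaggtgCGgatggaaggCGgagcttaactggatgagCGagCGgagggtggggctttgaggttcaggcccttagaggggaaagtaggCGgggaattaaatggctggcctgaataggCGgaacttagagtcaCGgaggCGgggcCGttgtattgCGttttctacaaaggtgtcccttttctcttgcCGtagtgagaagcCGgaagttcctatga
Sar1b: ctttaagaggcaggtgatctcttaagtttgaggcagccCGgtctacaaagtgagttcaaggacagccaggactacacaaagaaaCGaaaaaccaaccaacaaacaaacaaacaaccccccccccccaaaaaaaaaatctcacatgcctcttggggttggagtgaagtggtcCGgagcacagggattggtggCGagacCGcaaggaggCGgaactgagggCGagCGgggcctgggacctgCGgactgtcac
Mrpl3: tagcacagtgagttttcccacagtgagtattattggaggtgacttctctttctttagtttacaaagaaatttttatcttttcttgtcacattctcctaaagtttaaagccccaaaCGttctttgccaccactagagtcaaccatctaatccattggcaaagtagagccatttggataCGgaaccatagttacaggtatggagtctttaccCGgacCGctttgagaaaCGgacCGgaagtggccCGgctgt
Prok2: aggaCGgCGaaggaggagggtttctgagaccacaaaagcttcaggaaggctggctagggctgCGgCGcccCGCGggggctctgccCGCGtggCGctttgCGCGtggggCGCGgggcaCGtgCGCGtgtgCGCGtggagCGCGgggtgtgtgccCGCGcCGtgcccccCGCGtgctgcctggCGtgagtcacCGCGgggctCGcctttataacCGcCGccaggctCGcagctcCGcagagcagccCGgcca
Egr4: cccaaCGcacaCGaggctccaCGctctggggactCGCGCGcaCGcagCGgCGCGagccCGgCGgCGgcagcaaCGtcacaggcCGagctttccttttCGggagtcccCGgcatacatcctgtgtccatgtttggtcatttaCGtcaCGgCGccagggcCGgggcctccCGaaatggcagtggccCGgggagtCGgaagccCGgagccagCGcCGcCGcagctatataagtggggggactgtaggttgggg
Dusp5: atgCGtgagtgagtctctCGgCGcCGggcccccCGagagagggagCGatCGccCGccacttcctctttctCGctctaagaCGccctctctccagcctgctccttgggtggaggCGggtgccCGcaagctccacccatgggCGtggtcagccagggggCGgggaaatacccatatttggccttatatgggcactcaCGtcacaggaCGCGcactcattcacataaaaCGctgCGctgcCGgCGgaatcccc
Six4: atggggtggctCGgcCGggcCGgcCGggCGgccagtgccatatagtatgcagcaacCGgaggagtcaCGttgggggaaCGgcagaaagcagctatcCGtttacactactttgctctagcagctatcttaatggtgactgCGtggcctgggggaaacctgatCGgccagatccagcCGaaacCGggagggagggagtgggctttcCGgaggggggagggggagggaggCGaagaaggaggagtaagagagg
Lhx2: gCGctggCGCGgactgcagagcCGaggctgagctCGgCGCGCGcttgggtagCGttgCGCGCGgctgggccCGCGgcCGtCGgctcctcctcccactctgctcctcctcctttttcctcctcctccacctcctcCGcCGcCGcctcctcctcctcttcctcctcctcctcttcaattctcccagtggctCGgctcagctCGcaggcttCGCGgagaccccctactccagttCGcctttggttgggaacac

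The number of CpG dinucleotides in these 250 bases was 34 for Prok2, 28 for Egr4, 24 for Lhx2, 21 for Dusp5, 15 for Six4, 13 for Heatr1, 9 for Sar1b and 7 for Mrpl3. The Prok2 promoter held CACGTG, the E-box read by CLOCK and BMAL1, from position -135, TGAGTCA, a match to the AP-1 motif TGANTCA, from position -67, and TATAAA on the opposite strand from position -46, counted from the start. The Sar1b promoter held CCAAT on the opposite strand at -67, and Mrpl3 held it at -219 and -99. None of the motifs searched was found in these windows of Heatr1, Egr4, Dusp5, Six4 or Lhx2.

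Over 300-base promoter windows (250 bases before and 50 after the start), those with the start inside a peak without H3K27ac were CpG-rich. The 2245 such windows, from 2018 genes, had a median GC content of 61.3% and a median CpG observed-over-expected ratio of 0.687, and 63% of them reached 0.6. The 8125 windows inside acetylated H3K4me3 peaks had medians of 62% GC and 0.792, and 79% reached 0.6. The 7922 windows of genes in the expression tables inside no dark H3K4me3 row had medians of 48% GC and 0.193, and all 32851 RefSeq promoter windows had 52.7% GC and 0.384. The windows of peaks without H3K27ac thus lay close to acetylated windows in GC content and below them in CpG ratio. Windows of member genes under 0.1 RPKM had a median CpG ratio of 0.716 (184 windows) and those at 10 RPKM or more 0.713 (313 windows), and the windows at 0.1 to 1 and 1 to 10 RPKM had 0.662 and 0.684.

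Motifs were searched on both strands, and no motif is contained in another. CCAAT stood in 39.3% of windows of peaks without H3K27ac, 37.5% of acetylated windows and 37.4% of all windows. TATAAA stood in 8.29%, 5.48% and 13.6% of the same 3 sets, CACGTG in 9.89%, 10.7% and 7.15%, and TGANTCA in 5.43%, 3.85% and 7.81%. TGACGTCA, the cyclic AMP response element, was found in 2.18% of windows of peaks without H3K27ac, 3.82% of acetylated windows and 1.79% of all windows, and the NRF1 motif in 0.713%, 2.66% and 0.971%. Among windows of peaks without H3K27ac, TATAAA was found in 16.3% of those whose gene was under 0.1 RPKM, 6.43% at 0.1 to 1, 7.75% at 1 to 10 and 9.27% at 10 RPKM or more.

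Peaks without H3K27ac were weaker and narrower than acetylated peaks, which follows in part from how they were chosen and is given as a description. Their median fold enrichment, the authors' value per peak, was 12.5 in dark, their median -log10 q 31.9 and their median width 838 bp. Acetylated peaks had medians of 33.2-fold, 134 and 1788 bp. In the light list the rows overlapping peaks without H3K27ac had a median fold of 10.9, and they covered a median share of 0.835 of the dark peak. The share of peaks without H3K27ac was 67.7% at a -log10 q of 10 to 20 and 5.99% at 150 or more, where 301 of 5029 peaks still lacked it. It was 75.5% among peaks under 500 bp and 7.38% among those of 2000 to 3000 bp, and only 71 of 2020 peaks (3.51%) of 3000 bp or wider, which the width limit leaves out, lacked H3K27ac.

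**Figure D1:**
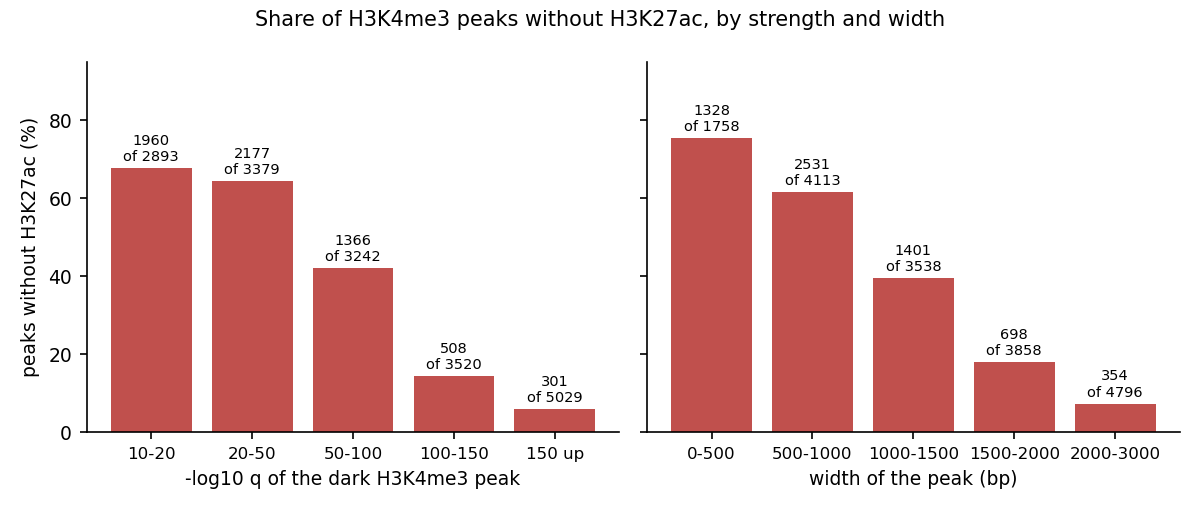
Share of qualifying dark H3K4me3 peaks that overlapped no H3K27ac row (y axis, percent) by -log10 q (left) and by width in bp (right), with counts above the bars. The share was 67.7% in the weakest bin and 5.99% in the strongest, and 75.5% in the narrowest bin and 7.38% in the widest.

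The H3K27ac lists were themselves weaker than the H3K4me3 lists: their highest -log10 q was 67.3 in dark and 59.8 in light, with a median width of 278 and 275 bp, against a highest -log10 q of 282 in dark and 289 in light for H3K4me3. A peak outside these lists may therefore carry acetylation below the calling threshold. Few peaks without H3K27ac sat at the edge of acetylated chromatin. The median distance to the nearest H3K27ac row was 29559 bp, 392 peaks (6.21%) lay within 500 bp of one and 2313 (36.6%) over 50000 bp away. Within 500 bp of an acetylated or a wider H3K4me3 peak lay 584 (9.25%).

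At the q-value limit the weakest peaks without H3K27ac had a -log10 q of 10 (Dnal1, Ces5a and Gramd1b were their nearest genes), and the strongest just under it 9.98 (Nelfa, Garem and Bdp1). At the width limit the widest were 2997 bp (Onecut2), 2995 bp (Cited1) and 2990 bp (Klhl14), and the narrowest beyond it 3009 bp (Avpr1a) and 3018 bp (Sh3rf3).

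Genes of the expression tables were placed by RefSeq positions, and each peak was assigned to the gene whose start was nearest to its summit, or whose nearer end was where no start was listed. Of the 6312 peaks, 3108 (49.2%) lay within 1000 bp of such a point, with a median -log10 q of 54.1, against 8441 (71.8%) of acetylated peaks. A further 809 (12.8%) lay 1000 to 5000 bp away, 969 (15.4%) farther and inside a gene and 1426 (22.6%) farther and between genes. Of the 3204 peaks over 1000 bp away, 263 lay within 1000 bp of a start of a gene outside the expression tables, 232 of them long noncoding RNA genes. The assignment gave 5005 genes, called member genes below. Of these, 4028 had 1 such peak and 222 had 3 or more. Snrpn, an imprinted gene of the Prader-Willi region, was nearest to 17, and Ndn, a neighbouring imprinted gene, Nr2f2, a nuclear receptor gene, and Bcor, a corepressor gene, to 9 each.

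By chromosome the share of qualifying peaks without H3K27ac was 31.1% to 42% on the autosomes, with the highest on chromosome 13, and 54.3% on the X (338 of 622). Chromosome X peaks were weaker than autosomal ones, at a median -log10 q of 62.6 against 96.2. At matched strength the share was higher on the X in 3 of the 4 bins that hold X peaks: 88.5% against 67.1% on the autosomes at a -log10 q of 10 to 20, 71.4% against 64% at 20 to 50, and 28.6% (18 of 63 peaks) against 14.2% at 100 to 150. At 50 to 100 it was 39.7% on the X and 42.4% on the autosomes. Male mice carry a single X, and its part in these values was not tested. Member genes on the X had a median of 6.18 RPKM (267 genes), against 2.39 RPKM on the autosomes (4735 genes).

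Member genes were expressed at lower levels than genes of acetylated peaks, and most were not silent. Over the 4 CT17 dark libraries the 5005 member genes had a median of 2.51 RPKM, with library medians of 2.47 to 2.6, and 65.2% reached 1 RPKM. The 9262 genes nearest to an acetylated peak had a median of 8.6 RPKM (library medians 8.31 to 8.71) and 91.5% reached 1 RPKM. Over all 21999 genes the median was 2.25 RPKM and 56.7% reached 1 RPKM. The 1996 member genes that were also nearest to an acetylated or wider H3K4me3 peak had a median of 7.34 RPKM, whereas the 3009 others had 1.02 RPKM, and 50.4% of those reached 1 RPKM. These are descriptions of gene sets, with no test, since genes of 1 tissue are not replicates.

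The contrast was clearer where the gene's start itself lay inside the peak. A set of 1920 genes had a start in a peak without H3K27ac and none in an acetylated or wider peak. Their median was 1.65 RPKM (library medians 1.56 to 1.68), and 60.5% reached 1 RPKM. The 6821 genes with a start in an acetylated peak had a median of 8.73 RPKM (8.41 to 8.9) and 95% reached 1 RPKM. The 1503 genes with a start in a peak of 3000 bp or wider had 13.8 RPKM, and the 6309 with a start in no dark H3K4me3 row had 0 RPKM. Only 24 of the 1920 genes (1.25%) were at 0 in all 4 libraries, against 3242 of 6309 (51.4%) without H3K4me3. A level of 10 RPKM or more was reached by 235 of the 1920 (12.2%) and by 3087 of the 6821 (45.3%). The gene lengths behind the deposited RPKM had medians of 3730 bp and 4164 bp in these 2 sets.

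**Figure D2:**
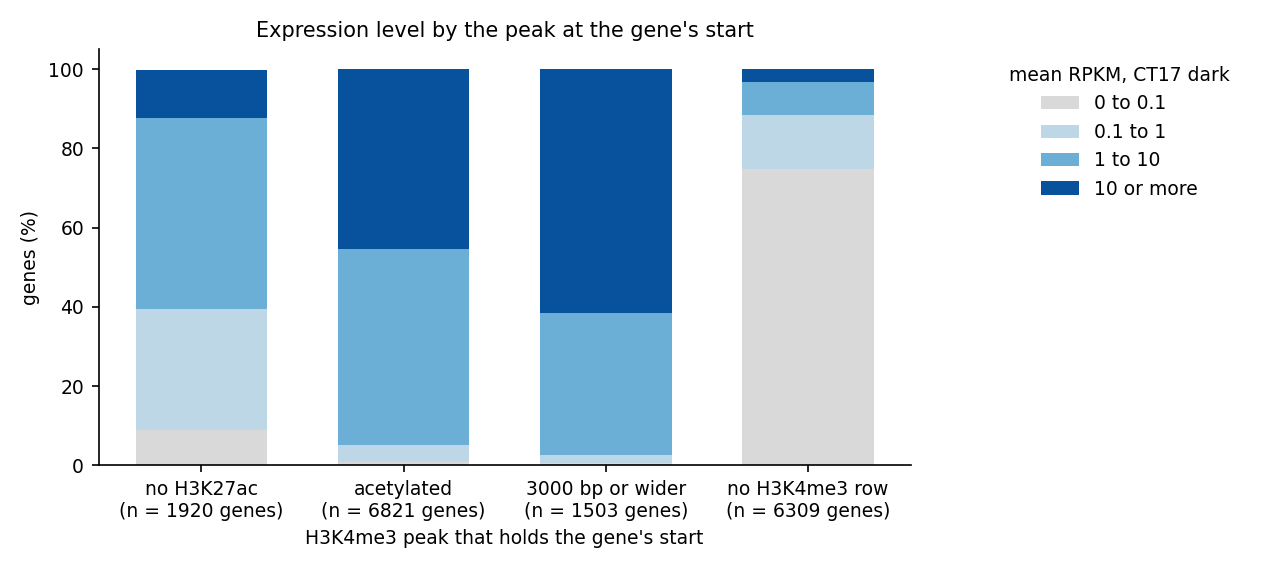
Share of genes (y axis, percent) at 4 levels of mean RPKM in the 4 CT17 dark libraries, by the H3K4me3 peak that holds the gene's start. Genes with a start in a peak without H3K27ac lay between those of acetylated peaks and those with no H3K4me3 row, with 12.2%, 45.3% and 3.17% at 10 RPKM or more.

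The lower level also held within peaks of like strength. At a -log10 q of 150 or more, genes with the start in a peak without H3K27ac had a median of 5.17 RPKM (248 genes), against 10.1 RPKM for acetylated peaks (4034 genes). At 50 to 100 the medians were 1.82 RPKM (666 genes) and 7.03 RPKM (738 genes), and at 20 to 50 they were 1.06 RPKM (565 genes) and 5.27 RPKM (180 genes). Without H3K27ac the median RPKM was higher in each stronger bin, from 0.674 at 10 to 20. With the width in place of the q-value, peaks without H3K27ac of 2000 to 3000 bp had 3.64 RPKM (253 genes), against 10.8 RPKM (3715 genes).

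**Figure D3:**
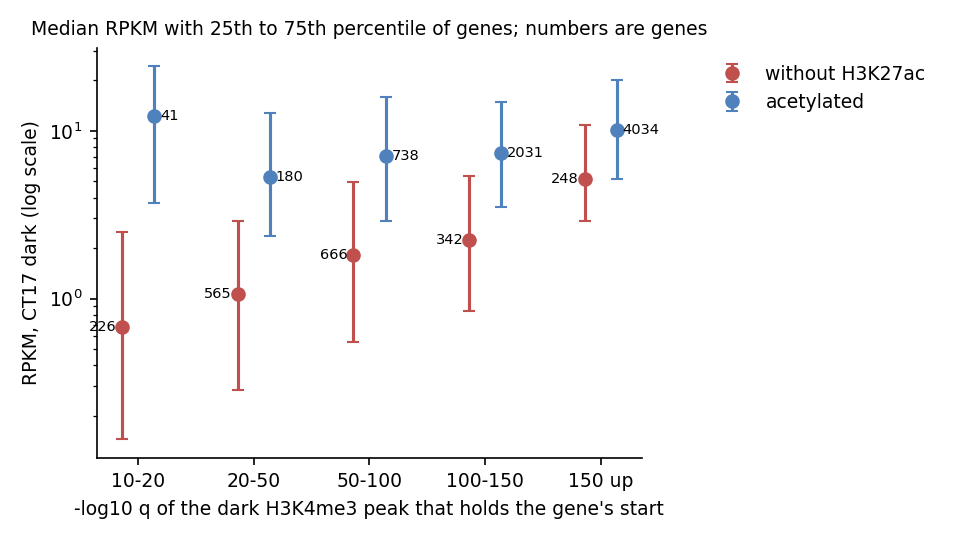
RPKM in CT17 dark on a log scale (y axis) by -log10 q of the dark H3K4me3 peak that holds the gene's start (x axis); points are medians over genes, bars run from the 25th to the 75th percentile of genes and numbers count genes. In each of the 5 bins the median was lower without H3K27ac, for example 1.82 against 7.03 RPKM at 50 to 100.

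The median RPKM of member genes lay between 2.37 and 2.86 in every library of the light-pulse and Npas4 experiments, with 2.38 and 2.41 after 1 h of light against 2.47 to 2.6 in CT17 dark. It was 2.51 to 2.6 in wild-type light libraries of the Npas4 experiment, 2.43 to 2.63 in light libraries labelled null, 2.4 to 2.81 in dark libraries labelled null and 2.4 to 2.68 in wild-type dark libraries.

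The strongest peaks without H3K27ac included several at genes of general cell function. The first was at Heatr1, a ribosome biogenesis factor (chr13:12394630-12396643, 57.4-fold in dark and 44.1-fold in light). Heatr1 read 5.52, 4.84, 4.92 and 5.01 RPKM in the CT17 dark libraries. Sar1b, a GTPase of vesicle export from the endoplasmic reticulum, followed with 55.4-fold in dark and 59.3, 56.1, 55.9 and 52.7 RPKM. Mrpl3, a mitochondrial ribosomal protein gene, had 54.4-fold and 11.4, 12.9, 11.9 and 12.4 RPKM. The other 9 of the 12 strongest were at Eif3h, Spns1, Dph1, Xab2, Ints1, Scfd2, Zfp81, Tomm5 and Polr3a, with means of 1.46 RPKM (Scfd2) to 85.1 RPKM (Eif3h, a translation initiation factor subunit). None of these 12 genes was also nearest to an acetylated or wider peak, and all 12 were expressed in every CT17 dark library.

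A few member genes with the peak within 1000 bp of a gene start or end were among the most expressed genes. B2m, the light chain of class I histocompatibility molecules, averaged 290 ± 35.8 RPKM (SD, n = 4), and its peak at chr2:122147208-122148803 had 36-fold enrichment and lay 28346 bp from the nearest H3K27ac row. In wild-type dark libraries of the Npas4 experiment B2m read 103, 90.6 and 122 RPKM, all below the CT17 values of 238 to 317 RPKM. The X-linked neighbours Ngfrap1 and Bex2 averaged 288 ± 31.4 and 286 ± 30.8 RPKM. The imprinted genes Snrpn and Ndn averaged 278 ± 11.2 and 159 ± 19.3 RPKM, Gpx3, a secreted glutathione peroxidase, 160 ± 12.3 RPKM, and Gfap, the intermediate filament of astrocytes, 159 ± 12.8 RPKM (SD, n = 4 each). Syt11, Hspa8 and Syp completed the 10 highest, and these 3 and Snrpn were also nearest to an acetylated or wider peak. No listed start of Ngfrap1, Bex2, Gfap or Syp lay inside a dark H3K4me3 peak. The peaks within 1000 bp of Gfap, Hspa8 and Syp lay 726, 679 and 212 bp from the nearest H3K27ac row. Those of Ngfrap1 and Bex2 lay 18498 and 36133 bp from it.

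Regulators of development were frequent among member genes. Of all 21999 genes 22.8% were member genes. Of 83 developmental ligands and antagonists 58 (69.9%) were, with a median of 0.534 RPKM and 22 at 1 RPKM or more. Of 120 homeobox and paired factors outside the Hox clusters 74 (61.7%) were, with a median of 0.166 RPKM and 17 at 1 RPKM or more, and of 132 other developmental factors 79 (59.8%), with a median of 0.321 RPKM. Six4, a homeodomain factor, read 0.333, 0.299, 0.243 and 0.282 RPKM in the CT17 dark libraries under a peak of 31.4-fold. Prdm1, a zinc-finger repressor, read 0.096, 0.109, 0.173 and 0.157 RPKM, and its strongest such peak (31.1-fold) lay 70901 bp from its start. Fgf5, a growth factor gene, read 0.0904, 0.053, 0.146 and 0.0399 RPKM under a peak of 23.7-fold. All 3 stayed under 1 RPKM in each library. Lhx2, a LIM homeodomain factor, had 1.78, 1.94, 1.92 and 1.65 RPKM and Snai2, a zinc-finger factor, 1.72 ± 0.345 RPKM (SD, n = 4).

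Fewer of these genes had the start itself inside the peak. Of the 84 homeobox and paired factors with a listed start, 21 (25%) had a start in a peak without H3K27ac. These 21 had no start in an acetylated or wider peak. A start in an acetylated peak was found for 2 and in a wider peak for 9. Of 57 ligands the counts were 23 (40.4%), 7 and 3. Over all genes with a listed start 11.4% had a start in a peak without H3K27ac and none in an acetylated or wider peak. Hox cluster genes stood apart from these lists: 5 of 39 (12.8%) were member genes, 34 were nearest to no qualifying peak, and the highest peak, nearest to Hoxa7, had 19.5-fold enrichment while Hoxa7 was at 0 in 3 of 4 libraries.

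Among germline genes 9 of 49 (18.4%) were member genes, led by Tdrd5, a Tudor domain gene of the piRNA pathway (0.437 ± 0.0717 RPKM), and Mei4, a meiotic recombination gene (0.713 ± 0.0383 RPKM; SD, n = 4 each). Of the name classes, 87 of 422 zinc finger genes (20.6%), 26 of 68 histone genes (38.2%), 25 of 56 clustered protocadherins (44.6%) and 12 of 1119 olfactory receptor genes (1.07%) were member genes. Histone genes lie in clusters of near-identical copies, and their count is uncertain for that reason. None of the 56 clustered protocadherins had a listed start, so they could be placed by their ends alone, and their count is uncertain too. Predicted genes (111 of 1607) and RIKEN genes (125 of 706) gave 6.91% and 17.7%.

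Genes that name the SCN were divided between the peak classes. Of 20 SCN identity factors 11 were member genes, 14 of the 20 were nearest to a peak of 3000 bp or wider, and 2 had a start in a peak without H3K27ac alone, against 11 with a start in a wider peak. Of 21 SCN peptides and receptors 10 were member genes, with a median of 22.6 RPKM. Penk, the enkephalin precursor, read 91.6, 103, 83.6 and 90.6 RPKM in CT17 dark under a peak of 17.6-fold (chr4:4137876-4139266) that lay 113596 bp from the nearest H3K27ac row. Calb2, a calcium-binding protein, averaged 79 ± 12 RPKM and Pdyn, the dynorphin precursor, 15.4 ± 3.15 RPKM (SD, n = 4 each). Of 25 core clock genes 4 were member genes and none had its start in a peak without H3K27ac alone. Of 33 immediate-early genes 11 were, and of 30 housekeeping genes 9, of which Tbp, the TATA-binding protein, and B2m had their start in such a peak.

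Markers of several cell types were also found among member genes, which made up 22.8% of all genes. All 5 markers of oligodendrocyte precursors, 5 of 8 astrocyte and 4 of 10 oligodendrocyte markers were nearest to a peak without H3K27ac. Of those with a listed start, 1 of 3 precursor, 1 of 6 astrocyte and 3 of 8 oligodendrocyte markers had it in such a peak. Another 3 astrocyte markers had a start in a peak of 3000 bp or wider. The strongest such peaks of S1pr1, Gja1, Fgfr3, Neu4 and Pdgfra lay 67889, 54476, 26077, 14729 and 4544 bp from the gene's start or end. Cldn11, a tight junction protein of myelin, averaged 98.6 ± 13.7 RPKM, Ugt8a, an enzyme of myelin lipids, 21.8 ± 1.15 RPKM, and Mag, myelin-associated glycoprotein, 29.5 ± 3.11 RPKM (SD, n = 4 each), and each had its start in such a peak. Pdgfra, a receptor of precursors, averaged 7.26 ± 0.834 RPKM. Pericyte markers gave 3 of 7, endothelial markers 2 of 8, meningeal markers 2 of 8 and ependymal markers 2 of 7. The endothelial (25%), meningeal (25%) and ependymal (28.6%) shares lay near that of all genes. Of microglial markers 0 of 10 and of blood markers 0 of 5 were member genes. However, 9 of the 10 microglial and all 5 blood markers were nearest to no qualifying H3K4me3 peak of any class. Of 10 neuronal markers 3 were member genes (Nefl, Gad2 and Rbfox3), and 5 of the 10 had a start in a peak of 3000 bp or wider. Of 20 neuropeptides of neighbouring hypothalamic nuclei 5 were, among them Npy, with 27.8, 42.1, 16 and 96.9 RPKM, and Cartpt, with 42.6 ± 4.8 RPKM (SD, n = 4). How many cells of each type carried the mark cannot be read from whole tissue.

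**Figure D4:**
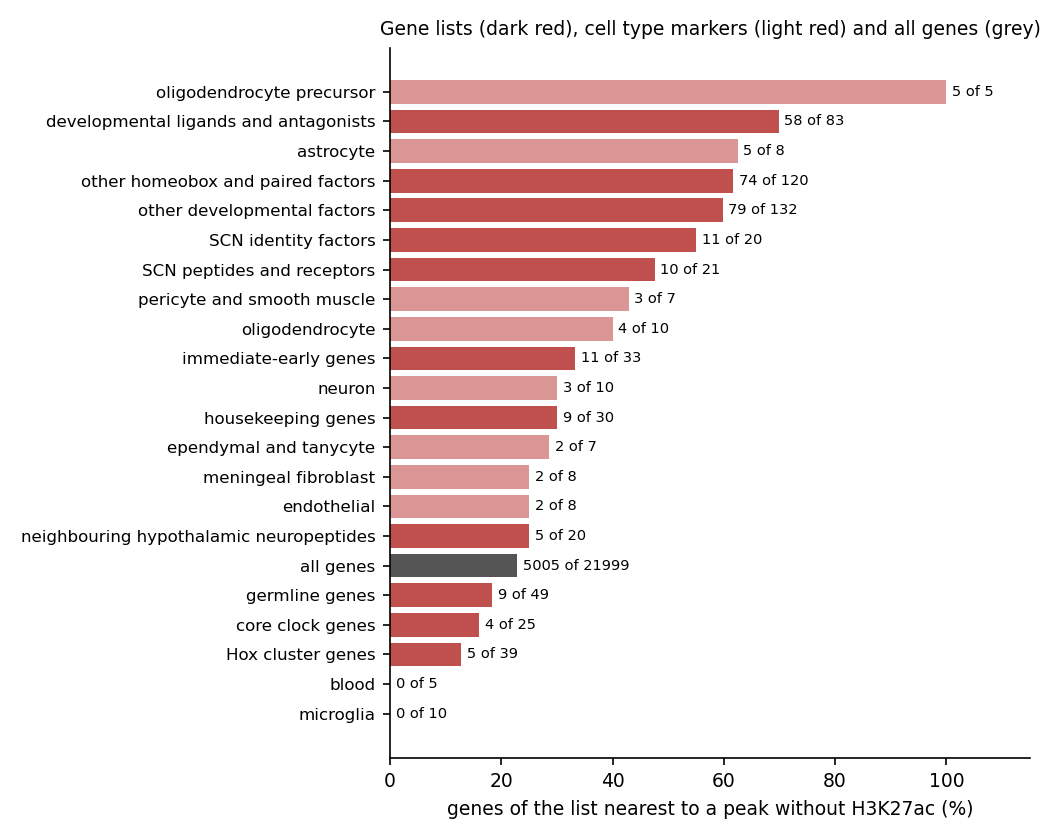
Share of the genes of each list that were nearest to a peak without H3K27ac (x axis, percent), with counts beside the bars. Oligodendrocyte precursor markers (5 of 5), developmental ligands (58 of 83) and homeobox factors (74 of 120) lay above the 22.8% of all genes. Hox cluster genes (5 of 39) lay below it. The nearest peak need not cover the start: of 3 precursor markers with a listed start, 1 had it in such a peak.

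Light of 1 h, the length of light in the light ChIP samples, changed some member genes by large factors. Of 5005 member genes 4223 passed the filter on low counts, and 424 (10%) were called by edgeR at an adjusted p of 0.05, 218 higher and 206 lower than in CT17 dark. Over all 14524 genes tested 8.39% were called, 4.39% higher and 3.99% lower, so the share among member genes lay near that of all genes. The count rested on the model. By the labels both 1 h libraries were in batch 2 with CT17 libraries 1s and 2s, and CT17 libraries 1 and 2 were in batch 1. When the fit held a term for the suffix s of the titles, and not the labelled batch, 57 member genes were called. Of these 47 were higher and 10 lower, and 1.27% of all genes were called. Without CT17 libraries 1s and 2s 176 and 185 member genes were called (4.17% and 4.39%), against 3.25% and 3.43% of all genes. Leaving out either 1 h library left a single library in that arm, and fewer genes were called, over all genes as well as among member genes.

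Activity-induced genes led the member genes that rose after 1 h, ordered by adjusted p. Prok2, a secreted output signal of the SCN, read 9.44 and 7.81 RPKM after 1 h of light, against 0.825, 0.381, 0.917 and 0.434 RPKM in CT17 dark. Both light libraries lay above all 4 dark libraries, with a log2 fold change of 4.42 ± 0.22 (SE; adjusted p = 3.9e-09, and 1.33e-06 with the suffix term). Its peak, chr6:99725724-99726978, covers the start and lay 32107 bp from the nearest H3K27ac row. Egr4, a zinc-finger immediate-early factor, read 3.43 and 3.66 RPKM in light, against 0.175, 0.139, 0.136 and 0.124 RPKM in dark. It rose by 4.72 ± 0.29 in log2 (SE; adjusted p = 5.71e-08), with its peak (chr6:85512992-85514228) 3823 bp from H3K27ac. Dusp5, a MAP kinase phosphatase, read 3.4 and 3.09 RPKM in light, against 0.731, 0.617, 0.651 and 0.619 RPKM in dark, a rise of 2.42 ± 0.18 (SE; adjusted p = 7.34e-07). Its peak (chr19:53528455-53530114) lay 69990 bp from H3K27ac. None of these 3 genes was also nearest to an acetylated or wider H3K4me3 peak.

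Other rises among such genes were smaller or rested on lower counts. Fosl1, an AP-1 subunit, rose by 4.01 ± 0.42 in log2 and read 1.22 and 1.2 RPKM in light, against 0.132, 0.0972, 0 and 0.0584 RPKM in dark. Cyr61, a matricellular protein gene, rose by 1.03 ± 0.14 and Ghsr, the ghrelin receptor, by 0.9 ± 0.1 (SE; adjusted p = 0.000404 and 0.000112). Egr3 (4.44 ± 0.22), Nr4a2 (2.54 ± 0.16), Arc (2.48 ± 0.1), Dusp4 (2.97 ± 0.16), Sik1 (1.82 ± 0.08), Plk2 (1.32 ± 0.07) and Srxn1 (0.89 ± 0.06) also rose, but each was in addition nearest to an acetylated or wider peak, and the peaks without H3K27ac of Arc, Dusp4, Sik1, Plk2 and Srxn1 lay 1838 to 9308 bp from the gene's start or end. Of the 11 immediate-early genes among member genes 9 rose and none fell, with a median log2 fold change of 2.16, and the same 9 rose with the suffix term. The list was known to respond in these libraries and is not independent evidence.

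Several of the lower calls at 1 h depended on the terms of the fit. Ppp1r14a fell by 1.49, Ermn, a myelin gene, fell by 1.0 and Fa2h, an enzyme of myelin lipids, fell by 0.97 (adjusted p = 0.000216, 0.000532 and 0.000719), and with the suffix term the adjusted p was 0.0603, 0.121 and 0.033, so that Fa2h stayed called. With no batch term Ppp1r14a and Ermn were also not called (adjusted p = 0.113 and 0.118). Ermn read 21.5 and 29.8 RPKM in light, against 39.5, 50.6, 38.2 and 53.8 RPKM in dark, where both libraries with the suffix s were higher than both without it. All 10 oligodendrocyte markers were called lower, with a median log2 fold change of -0.91, and with the suffix term 0 of 10 were called, with a median of -0.52. Their summed level was 694 and 1015 RPKM in light against 1302 to 1580 RPKM in CT17 dark, and that of the 5 blood markers 77.4 and 141 RPKM against 135 to 359 RPKM (median log2 fold change -1.46, 0 of 5 called). The part of these cell types in the calls was not tested. Of 79 developmental factors among member genes 49 were tested, of which 7 were called higher and 7 lower. That is a larger share than the 8.39% called over all 14524 genes. The suffix term left 1 of these factors, Sox8, called lower, while 1.27% of all genes were called in that fit. Of 39 homeobox and paired factors tested 3 were called higher and 2 lower, a share nearer to that of all genes. The suffix term left none of them called (0 of 39).

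After 6 h of light 61 member genes were called against CT23 dark, 41 higher and 20 lower, which is 1.44% of those tested, against 1.01% of all genes (0.723% higher and 0.282% lower). Sema3e, a secreted semaphorin, read 8.14 and 8.28 RPKM in light, against 2.35 and 2.25 RPKM in dark, and rose by 1.99 ± 0.11 in log2 (SE; adjusted p = 5.8e-07). Its peak (chr5:14024976-14027164) lay 41581 bp from the nearest H3K27ac row. Osmr, the oncostatin M receptor, rose by 2.77 ± 0.32, Npr1, a natriuretic peptide receptor, by 2.2 ± 0.28, Prok2 by 2.41 ± 0.27, Styk1, a kinase gene, by 1.26 ± 0.16, Fgf2, a growth factor, by 0.88 ± 0.1 and St8sia6, a sialyltransferase, by 0.75 ± 0.08. Ankrd63 had a log2 fold change of -2.94 ± 0.24, with 0.375 and 0.379 RPKM in light against 3.13 and 2.46 RPKM in dark, Sertm1 of -1.37 ± 0.19 and Lgi2 of -0.94 ± 0.09. The suffix term left each of these 10 genes called, the weakest being Prok2 (adjusted p = 0.00597). With no batch term Prok2 was no longer called (adjusted p = 0.116). By the labels both 6 h light libraries shared batch 2 with CT23 dark replicate 2, and CT23 dark replicate 1 was in batch 1. Each arm had 2 libraries, so that a fit without 1 of them left an arm with a single library. The number of called genes then rose or fell, over all genes as well as among member genes.

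In wild-type littermates of the Npas4 experiment 111 member genes were called after 1 h of light, 99 higher and 12 lower. This is 2.54% of the 4376 tested, against 2.57% of all 15001 genes (2.23% higher and 0.34% lower). Genes whose peak lay within 1000 bp and that had no acetylated peak nearest gave 37 calls, or 1.7%. With the replicate number as a block 187 member genes were called, or 4.27%, against 5.03% of all genes. Egr4 read 22.3, 17.2 and 16.8 RPKM in light, against 0.507, 0.447 and 0.273 RPKM in dark, a rise of 5.54 ± 0.32 in log2 (SE; adjusted p = 3.94e-07). Prok2 read 9.54, 4.66 and 7.07 RPKM in light, against 0.411, 0.25 and 0.359 RPKM in dark, a rise of 4.41 ± 0.41 (SE; adjusted p = 2.89e-05). The groups did not overlap for either gene. Dusp5 rose by 2.96 ± 0.21, Cyr61 by 1.51 ± 0.13, Fosl1 by 5.8 ± 0.56, Tnfrsf12a, a receptor of the TNF family, by 2.02 ± 0.26, Dio2, the deiodinase that activates thyroid hormone, by 1.13 ± 0.13, Zfp184 by 0.99 ± 0.1 and Fzd9, a Wnt receptor, by 0.8 ± 0.11. Of the 11 immediate-early member genes 10 rose and none fell. Of 85 RIKEN and 83 zinc finger genes tested, 2 and 4 rose. The summed level of the 5 blood markers was 293 to 419 RPKM in light, against 353 to 1997 RPKM in dark (median log2 fold change -1.37, 0 of 5 called), and its part in the calls was not tested.

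In libraries labelled Npas4 null 72 member genes were called after 1 h of light, 69 higher and 3 lower, or 1.65% of those tested, against 1.56% of all genes (1.45% higher and 0.113% lower). Egr4 averaged 14.5 ± 4.55 RPKM in light and 1.07 ± 0.31 RPKM in dark (SD, n = 3 each), and rose by 3.8 ± 0.28 in log2 (SE; adjusted p = 5.65e-06). Prok2 read 14.2, 21.5 and 22.9 RPKM in light, against 4.1, 1.96 and 4.3 RPKM in dark, and rose by 2.54 ± 0.29 (SE; adjusted p = 0.000299). Dusp5 rose by 2.14 ± 0.2, Cyr61 by 1.29 ± 0.13 and Fosl1 by 3.25 ± 0.43, and Adamts15, a matrix protease gene, fell by 0.92. Of the 11 immediate-early member genes 9 rose and none fell. The summed level of the 8 meningeal markers was 10.6 to 13.2 RPKM in light, against 12 to 41.7 RPKM in dark (median log2 fold change -1.07), and that of the 5 blood markers 146 to 230 RPKM, against 235 to 301 RPKM (median -0.55). None of these markers was called, and their part in the calls was not tested. Whether the light response differed between genotypes was not tested here.

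**Figure D5:**
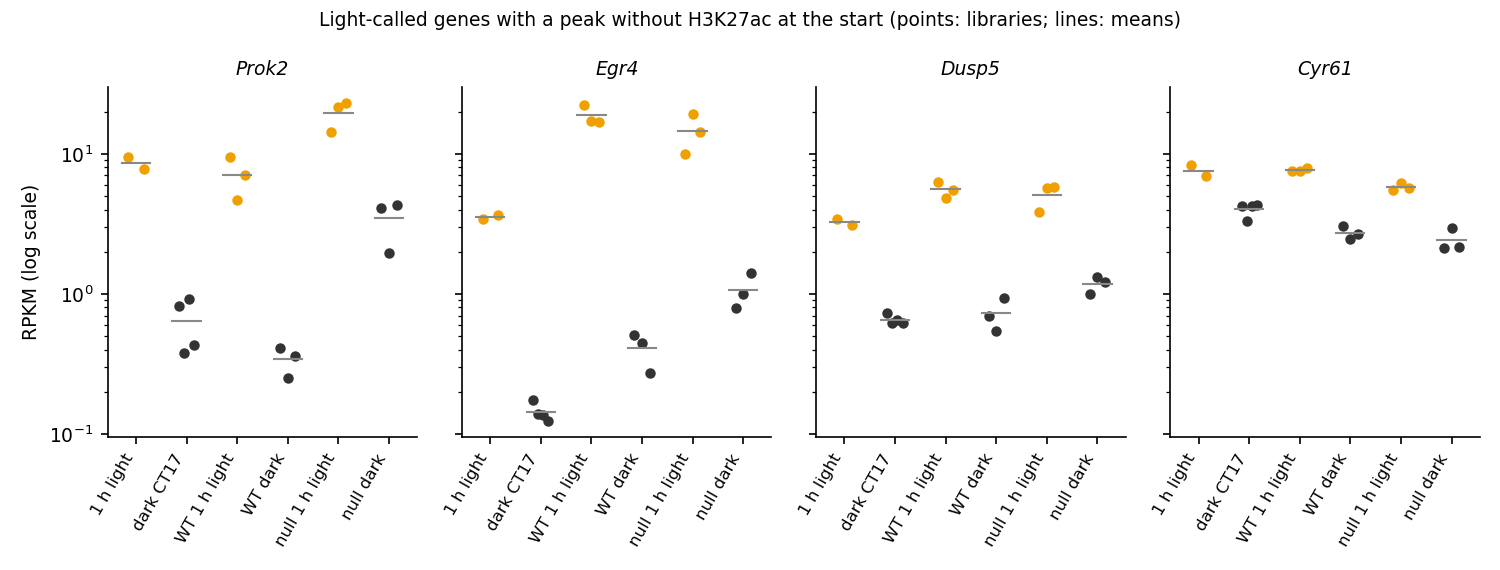
RPKM on a log scale (y axis) of 4 genes whose peak without H3K27ac had its summit within 283 bp of the start, by group (x axis); points are libraries and lines are means. For Prok2, Egr4, Dusp5 and Cyr61 every library after 1 h of light lay above every dark library shown of the same experiment and genotype, and Prok2 in dark was higher in libraries labelled null (1.96 to 4.3 RPKM) than in wild type (0.25 to 0.411 RPKM).

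In the dark 55 member genes were called between libraries labelled null and wild type, 30 higher and 25 lower. This is 1.26% of those tested, against 0.753% of all genes (0.433% higher and 0.32% lower), and with the replicate number as a block 176 member genes (4.02%) were called against 3.09% of all genes. Bdnf, a neurotrophin gene that neuronal activity induces, read 2.88, 2.59 and 2.84 RPKM in libraries labelled null, against 1.38, 1.36 and 1.37 RPKM in wild type, and was higher by 1.02 ± 0.08 in log2 (SE; adjusted p = 9.45e-05). Prok2 was higher by 3.34 ± 0.44 and Nms, a neuropeptide of the SCN, by 1.47 ± 0.2, with 97.4, 161 and 135 RPKM against 37.5, 52.2 and 52.8 RPKM. Nmu, a neuropeptide gene (2.54 ± 0.32), Fst, an activin antagonist (2.07 ± 0.24), Cldn23, a claudin (2.05 ± 0.24), and Procr, a protein C receptor (1.44 ± 0.15), were also higher. Cck, a neuropeptide whose peak lay 1264 bp from the gene's point, read 10.1, 6.73 and 9.24 RPKM in libraries labelled null, against 60.1, 52.6 and 69.2 RPKM in wild type, a log2 fold change of -2.8 ± 0.17 (SE; adjusted p = 8.09e-06). Robo3, an axon guidance receptor whose nearest such peak lay 27350 bp from its start, had -4.36 ± 0.26, Abcc8, a subunit of ATP-sensitive potassium channels, -0.91 ± 0.09 and Stac -0.88 ± 0.11. For each gene given here by library the 2 groups did not overlap. Without wild-type dark replicate 3 the count was 27 (0.614%, against 0.318% of all genes) and without its replicate 2 32 (0.727%, against 0.397%). None of the 5 blood markers or of the 8 meningeal markers was called. The summed level of the blood markers was 235 to 301 RPKM in dark libraries labelled null, against 353 to 1997 RPKM in wild type (median log2 fold change -1.7), and that of the meningeal markers 12 to 41.7 RPKM, against 14.2 to 16.4 RPKM (median 0.76). Their part in these calls was not tested.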

How the data were processed

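The authors deposited 1 narrowPeak list per mark and lighting condition, in which each peak has a linear fold enrichment (ratio) and a -log10 q-value from the authors' peak caller, every one of them 2 or more. They also deposited raw whole-number read counts per gene and RPKM values for 21999 genes in 16 light-pulse and 12 Npas4 libraries. The submitters' processing notes name mm10, and for alignment, counting and peaks the tools MACS2 2.1.1, HOMER 4.9.1, bedtools 2.25.0, BWA 0.7.16a, featureCounts 1.6.2, HTSeq 0.9.1, STAR 2.5.2b, SAMtools and STAR 2.7.1a. The notes do not tie a tool to a file, and whether reads were counted by strand is not stated, so overlapping and near-identical genes are uncertain.

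Members were taken by the rule in the report. Positions and promoter sequences came from RefSeq (GRCm38.p6): 20491 gene symbols matched directly, 817 by a synonym and 691 were not placed, and 16814 genes had a listed start. The other 4494 were placed by either end, which gave 1546 of the 6312 peaks their gene, and for these the point may be the 3′ end. RPKM values were used as deposited, as means over libraries, with no pseudocount.

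Counts were tested with the quasi-likelihood F-test of edgeR 4.0.16 (R 4.3.3) after TMM scaling and filterByExpr, which left 14524 and 15001 genes, with Benjamini-Hochberg adjustment over all genes tested and a call at an adjusted p under 0.05. All libraries of an experiment shared 1 fit, and the light-pulse fit held the batch of the labels. By the labels all 1 h, 3 h and 6 h light libraries were in batch 2. So were CT17 dark libraries 1s and 2s and CT23 dark replicate 2, and the other dark libraries of that experiment were in batch 1. DESeq2 1.42.0, other scaling, filters, covariates and libraries left out were tried as alternatives. On simulated counts with 200 changed genes, the 1 h light-pulse fit (14524 genes) recovered 98% of log2 changes of 2 and 84% of log2 changes of 1. The wild-type fit (15001 genes) recovered 98% and 85%, and the false calls were 9 and 12. The simulated counts held no batch, suffix or pair effect, so errors from these are not covered.

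Libraries with the same number, with and without the suffix s, were compared gene by gene, gave a chi-square divided by its degrees of freedom of 10.4 to 30.3 and were kept apart, although they may share a pool. Each library is a pool of animals, so the p-values reflect how much the pools vary, part of which may be technical. In the Npas4 experiment the deviations of same-numbered libraries correlated by 0.198 to 0.264 between wild-type light and dark and by 0.205 to 0.525 between dark libraries labelled null and wild type, so the numbers count as pairs there, from the data and not from the labels. The fits reported have no replicate block, and the fold changes, SE and adjusted p of single genes come from them. The counts with the block are given beside them for these 2 comparisons.

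The named genes followed a rule: the 12 strongest peaks, the peaks nearest to each limit, the 10 most expressed genes, up to 10 called genes per comparison with the smallest adjusted p and the 4 strongest peaks per list. The same choice among member genes with no acetylated or wider peak nearest was added after values were seen, and the printed promoters were chosen from all of these in the same way. Some genes that the rule names are not reported here. The members and lists were chosen with earlier results of these data known. Single-nucleus samples and ChIP input samples are not analysed here.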

Additional observations from a re-analysis of the deposited data

Results flagged for a closer look

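In groups of 4 libraries, chance places a library far from the others in about 1 of 20 groups, and 11 of 137 groups looked at were flagged. All are values in CT17 dark. Low values apart from the others were those of Spns1 (6.06 RPKM in replicate 2), Pou3f1 (0.763 in replicate 1), Cyr61 (3.3 in replicate 1s) and Barhl2 (0 in replicate 1s). High values apart from the others were those of Eif3h (91.6 RPKM in replicate 1s) and Zfp58 (2.12 in replicate 2s). Hoxa7 (0.0231 RPKM), Olfr1324 (0.0333), Olfr94 (0.0561), Gm15319 (0.0263) and Hist1h2bl (0.192) had reads in 1 library alone and were at 0 in the other 3.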

How the results depend on the processing

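The number of peaks without H3K27ac stayed within 1.5 times 6312 under all 6 alternatives run (4352 to 8157). The counts of called member genes moved more, and the share of all genes called moved with them. At 1 h of light that share was 8.39% in the main fit, 1.25% with no batch term and 15.2% with the replicate block. At 1 h of light (424) they were 62 with no batch term, 57 with the suffix term, 701 with the replicate block and 62 to 433 with single libraries left out. At 6 h (61) they were 92 with DESeq2 and 30 to 199 with single libraries left out. In wild-type light (111) the replicate block gave 187, in light libraries labelled null (72) it gave 126, and for the genotype in dark (55) it gave 176, DESeq2 113 and single libraries left out 27 to 50. Same-numbered libraries labelled null, light against dark, correlated by 0.23, 0.483 and 0.098, and those of the light-pulse experiment by 0.012 to 0.155. These were not taken as pairs, although 0.23 and 0.483 exceed the lowest value that was (0.198). Restricting member genes to those with the peak within 1000 bp and no acetylated peak nearest, a smaller set by construction, gave 198, 29, 37, 20 and 34 in the order of the 5 comparisons. As shares of those tested these were 9.51%, 1.39%, 1.7%, 0.919% and 1.56%, against 8.39%, 1.01%, 2.57%, 1.56% and 0.753% of all genes. The median RPKM of member genes (2.51) was 2.25 with a -log10 q of 20 or more, 2.16 with no H3K27ac row within 1000 bp, 1.82 with the peak within 1000 bp of a gene's start or end and 1.26 without genes that also had an acetylated peak nearest. The share at 1 RPKM or more (65.2%) was 63.1%, 62.1% and 53.8% under the last 3 of these, and 73.7% reached 0.5 RPKM. Placing all genes by the nearer of start and end was added after seeing the data. Apart from the construction named, the cause was not tested. With 1 library per peak list, no replicate spread limits the peak classes, and weak acetylation cannot be told apart from none.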
